A study of Oryza sativa Japonica Group with 36 samples.

Results

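The 150 rice genes described here were chosen by a score on the mean of log2(CPM + 1) over 3 replicates. CPM is the read count of a gene scaled to library size, adjusted by the trimmed mean of M-values (TMM) method. For each leaf, the highest mean at 4 and 12 days after heading (DAH) was subtracted from the lowest mean at 28, 36, and 44 DAH. The smaller of the values of both leaves was the score of a gene, and the 150 highest scores among the 38026 genes of the deposited table were taken. Because the rule used the level at the late days (28 to 44 DAH) against the early days (4 and 12 DAH), this difference is given for the members as a description, with no test. Every library other than those of 20 DAH entered the rule. Differences between leaves or days among those libraries come from the fit of all genes with their adjusted p, but are not independent of how the members were chosen, and nothing about the set is read from them.

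The study sampled flag leaves (FL) and second leaves (SL) of field-grown rice of the japonica cultivar Dongjin during grain-filling, every 8 days between 4 and 44 DAH. No group carried a mutation or received a treatment, and the leaf and the day are the factors that differ between the 12 groups. Each group had 3 replicates, 36 libraries in all, and each replicate pooled the middle parts of 9 leaves. Polyadenylated RNA of whole leaf pieces was sequenced, so fewer cells of a type and less RNA per cell cannot be told apart.

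Leaf senescence in cereals is the orderly dismantling of the leaf, in which chlorophyll is broken down, proteins are degraded, and nitrogen, phosphate, and metals are moved to the filling grain. NAC proteins, a plant-specific family of transcription factors, are known to control much of this program. Part of the annotated members are described below, ordered by these roles, and members that the sources do not annotate are given by their identifier alone. Other annotated members are not described further. Among them are a methionine synthase (OS12G0623900), a chloroplast ribosomal protein (OS02G0137200), a WRKY factor (OS03G0758000), and a cytochrome P450 (OS01G0628900).

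The libraries held 5713546 to 29789199 reads on genes, so that a count of 3 reads, taken as the floor, was worth 0.106 to 0.511 CPM. The 5 light-harvesting and Rubisco small subunit genes found by name summed to 2475 to 4853 CPM in the late FL libraries and 2995 to 8776 CPM in the early FL libraries, and to 2359 to 5406 CPM in the late SL libraries and 2795 to 6151 CPM in the early SL libraries. A list of 10 genes found by seed storage names, glutelins among them, was summed as well. Its median was 14.94 CPM in the late and 8.61 CPM in the early FL libraries, and 17.88 and 8.15 CPM in SL. The medians of 20 DAH lay between these, at 12.17 CPM in FL and 15.73 CPM in SL. Single libraries of that day ran from 11.7 to 75.45 CPM in FL and from 14.3 to 109.9 CPM in SL. The highest library thus stood far above the median in each leaf. The part of both marker lists in the results was not tested. Single replicates stood apart among the members in SL. At 20 DAH, SL replicate 2 was the lowest of its group in 94 of the 150 members (62.7%), against 36.3% of the 22057 genes tested. At 28 DAH, SL replicate 2 was the lowest in 80 members, or 53.3%, against 32.9% of the tested genes. At 44 DAH, SL replicate 2 was the highest in 105 members (70.0% against 45.4%) and SL replicate 3 the lowest in 95 (63.3% against 40.4%). Values per library are therefore given, and results are also given without each replicate number where this changes them.

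The scores of the members ran from 1.74 for OS07G0683200, a NAC gene, to 0.4045 for OS05G0363200, annotated as a UDP-glucuronic acid decarboxylase, with a median of 0.55 on the log2 scale. The next gene outside, OS03G0153900, had a score of 0.4036, so the limit of 150 falls within a continuous range, and 1591 genes had a score above 0. SL set the score in 96 members and FL in 54. The mean over the late libraries was 3.39-fold the mean over the early libraries in FL (median of the members, range 1.52 to 39.97) and 2.96-fold in SL (range 1.45 to 38.1). Every late library exceeded every early library in both leaves in 99 members, and in 168 genes of the whole table. The rule chose on these libraries, so this separation is a description. All 150 members were past the threshold as higher at the late days in both leaves, as were 21.2% of the tested genes, which the rule fixes and from which nothing is read.

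The name of a steady rise in both leaves went against the means of most members. The mean rose at every step over the 6 days in 17 members in FL and 21 in SL, in 4 members in both leaves, and in 116 members in neither. The day with the highest mean was 44 DAH for 93 members in FL and 94 in SL. For 32 members in FL and 28 in SL it was 28 DAH. The lowest late day was 36 DAH in 89 members in FL and 82 in SL. The set is thus called by its rule, genes higher at 28 to 44 than at 4 to 12 DAH in both leaves. Membership depended on 36 DAH as well, since 18 of the 150 genes were also chosen when this day was left out of the rule.

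**Figure D1:**
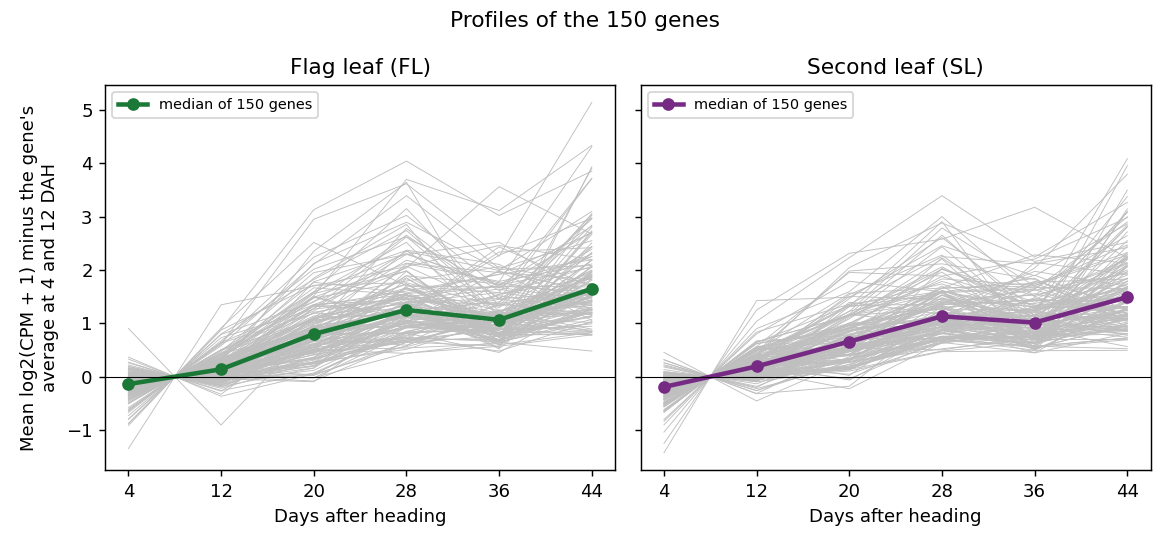
Profiles of the 150 genes in FL (left) and SL (right): the horizontal axis gives days after heading and the vertical axis the mean log2(CPM + 1) over 3 replicates minus the average of the same gene at 4 and 12 DAH. Grey lines are single genes and the thick line is their median, which dips at 36 DAH between 28 and 44 DAH in both leaves.

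Of the 150 members, 139 were matched to the RefSeq reference table (assembly ASM3414082v1), 134 as protein coding, 4 as long noncoding RNAs, and 1 as a transcribed pseudogene. A gene name or a description was found for 78. No member was a chloroplast or mitochondrial gene. Chromosome 2 held 28 members, or 18.7%, against 11.1% of all genes in the table, given as a description. There were 3 pairs of members with at most 2 genes between them, among them OS10G0389200 and OS10G0389300, which lie side by side.

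There were 4 NAC genes among the members by the study's own list or by annotation, and the gene with the highest score is among them. OS07G0683200 had a lowest, median, and highest value of 38.4, 84.2, and 134 CPM in the 9 late FL libraries, against 2.26, 5.02, and 12.9 CPM in the 6 early FL libraries. In SL, it had 85.6, 139, and 213 CPM in the late libraries, against 13.6, 24.1, and 32.9 CPM in the early ones. The late and early libraries did not overlap in either leaf, and the late mean was 12.5-fold the early mean in FL and 5.91-fold in SL. The leaves differed most at the start. At 4 DAH, OS07G0683200 had 2.34, 2.26, and 2.36 CPM in FL, against 13.6, 18.5, and 18.95 CPM in SL, a log2 difference of -2.36 ± 0.26 (SE, n = 3 each, limma adjusted p = 3.47e-07). At 12 DAH, the difference was -1.46 ± 0.26 (limma adjusted p = 0.000426), and both held without each replicate number. At 20, 28, and 36 DAH, FL was also lower, by -0.78 to -1.17, and each of these calls was lost when some replicate number was left out (highest adjusted p = 0.535, limma, 28 DAH).

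OS01G0884300 (OsNAC6, also SNAC2), a stress-responsive NAC factor, dipped at 36 DAH in both leaves. It had 409, 375, and 404 CPM in FL at 28 DAH, 247, 267, and 263 CPM at 36 DAH, and 507, 549, and 467 CPM at 44 DAH. In SL, the values were 446, 445, and 481 CPM at 28 DAH, 285, 254, and 352 CPM at 36 DAH, and 645, 717, and 554 CPM at 44 DAH. The libraries of 36 DAH lay below those of both neighbouring days in both leaves. The level at 36 DAH differed from the mean of 28 and 44 DAH by -0.83 ± 0.11 on the log2 scale in FL and by -0.80 ± 0.11 in SL (limma adjusted p = 5.35e-07 and 1.19e-06).

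OS03G0327800, which the study's annotation describes as the NAC protein NAP, took another course. It rose between 4 and 12 DAH, with 78.1, 106, and 109 CPM at 12 DAH against 58.1, 55.0, and 48.1 CPM at 4 DAH in FL. In SL, it had 115, 122, and 144 CPM at 12 DAH, against 72.4, 78.6, and 74.6 CPM at 4 DAH. The log2 change was 0.86 ± 0.14 in FL and 0.66 ± 0.14 in SL (limma adjusted p = 3.51e-05 and 0.000543), and both leaves had reached 159 CPM or more at 20 DAH. OS02G0579000, a NAC gene by the study's list, had 7.78, 6.81, and 6.95 CPM in FL at 44 DAH, against 2.22, 3.51, and 2.07 CPM at 28 DAH (log2 change 1.26 ± 0.25, limma adjusted p = 0.000454). Its SL libraries had 8.35, 12.6, and 8.07 CPM at 44 DAH, against 4.70, 3.82, and 4.64 CPM at 28 DAH, a change of 0.95 ± 0.25 that was lost without replicate 2 (limma adjusted p = 0.0088 with and 0.211 without it).

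Of 6 NAC genes known from earlier flag leaf profiling, 3 are members. All 6 were higher at the late days than at the early days in both leaves, where 21.2% of the tested genes were. The members' direction was fixed by the rule, and the list is not independent evidence of its direction, since it was drawn from flag leaves. Of 9 tested genes with a NAC name in the reference table, OsNAC6 among them, 5 rose and 1 fell in both leaves. For this and each list below, 21.2% of all tested genes rose and 20.8% fell in both leaves, and the rise of those genes of a list that are members was fixed by the rule.

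**Figure D2:**
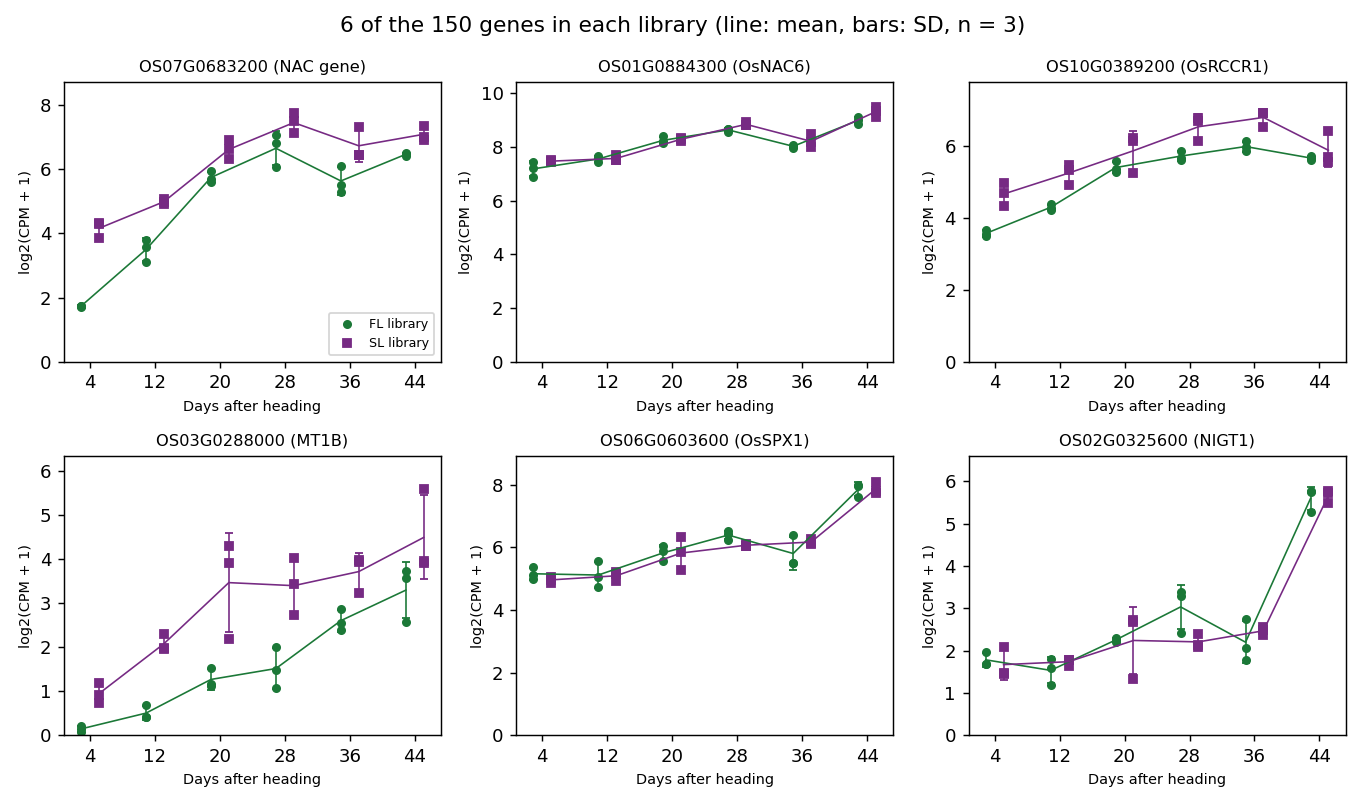
Values of 6 of the 150 genes in each library, as log2(CPM + 1) against days after heading, with FL libraries as circles and SL libraries as squares, lines through the means, and bars for the SD (n = 3). OS07G0683200 was lower in FL than in SL at 4 and 12 DAH and MT1B at 20 DAH, OsNAC6 dipped at 36 DAH, and OsSPX1 and NIGT1 were far higher at 44 DAH than at 28 DAH.

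Among other regulators, MYBAS2 (OS12G0567300), an R2R3-type MYB factor, was lower in FL than in SL at 20 DAH, with 69.7, 53.3, and 64.3 CPM against 121, 108, and 134 CPM. The libraries of the leaves did not overlap, and the log2 difference was -0.95 ± 0.17 (limma adjusted p = 0.000188), close to the -0.97 ± 0.17 of 28 DAH. OS01G0187900, annotated as MYBS2, rose late in FL, with 30.8, 24.5, and 25.1 CPM at 44 DAH against 8.68, 10.4, and 8.92 CPM at 28 DAH (log2 change 1.43 ± 0.22, limma adjusted p = 2.64e-05). In SL, its change of 0.81 ± 0.22 was lost without replicate 2 or 3 (limma adjusted p = 0.0115, highest 0.196). OsPRR1 (OS02G0618200), a pseudo-response regulator of the circadian clock, dipped at 36 DAH in both leaves. It had 2.01, 2.77, and 4.07 CPM in FL at this day, against 5.86 to 10.002 CPM at 28 and 44 DAH, and its deviation from the mean of those days was -1.103 ± 0.19 in FL and -1.02 ± 0.19 in SL (limma adjusted p = 1.64e-05 and 5.04e-05). Of the 4 tested pseudo-response regulators, 3 rose and 1 fell from the early to the late days in both leaves. Hd1 (OS06G0275000), a zinc-finger regulator of flowering time, was lower in FL than in SL at 4 of the 6 days, and each call was lost without some replicate number (highest adjusted p = 0.0642 to 0.263, limma).

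Chlorophyll breakdown was represented by OsRCCR1 (OS10G0389200), red chlorophyll catabolite reductase, which acts after the chlorophyll ring has been opened. It had a lowest, median, and highest value of 48.4, 52.2, and 69.7 CPM in the late FL libraries, against 10.3, 14.8, and 19.9 CPM in the early FL libraries. In SL, the late libraries had 46.1, 92.8, and 122 CPM, against 19.4, 30.1, and 43.7 CPM in the early ones. The separation was complete in both leaves, although narrow in SL. At 4 DAH, it had 10.3, 11.8, and 10.7 CPM in FL, against 24.9, 19.4, and 30.5 CPM in SL (log2 difference -1.13 ± 0.22, limma adjusted p = 0.00077). This call, like those of 12, 28, and 36 DAH, was lost without some replicate number (highest adjusted p = 0.0605 at 4 DAH, limma). The neighbouring OS10G0389300, annotated as a fragment of the same enzyme, was also a member at 1.84 to 10.9 CPM in the late FL libraries, against 0.357 to 1.98 CPM in the early ones. The strand setting of the read counting is not given in the sources used here, and reads shared by these adjacent genes could not be told apart. All 4 tested genes with a name of the chlorophyll breakdown pathway were higher at the late days in both leaves, where 21.2% of all tested genes were, and the rule had fixed this for OsRCCR1.

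OS04G0650000, annotated as the papain-type protease oryzain alpha, had 286 to 388 CPM in the late FL libraries and 136 to 207 CPM in the early ones. In SL, the 219 to 363 CPM of the late libraries overlapped with the 101 to 231 CPM of the early ones. CLPD1 (OS02G0526400), a chaperone subunit of the chloroplast Clp protease, was lower in FL than in SL at 4 DAH, with 56.0, 62.9, and 59.5 CPM against 148, 155, and 197 CPM (log2 difference -1.61 ± 0.22, limma adjusted p = 8.32e-06). CLPD1 was also lower in FL at 12 and 20 DAH, by -1.27 and -0.94 on the log2 scale (limma adjusted p = 0.000304 and 0.00164). The 20 DAH difference held without each replicate number, and that of 12 DAH was lost without replicate 2 (limma adjusted p = 0.0514). At 28 DAH, CLPD1 had 353, 367, and 563 CPM in FL, against 688, 475, and 450 CPM in SL, so the leaves overlapped. The cathepsin B-like protease OS05G0310500 was 2.94-fold higher in the late than in the early libraries in FL and 2.51-fold higher in SL. No protease list of all genes was tested, because descriptions were at hand for 1636 genes that the study had chosen on these samples. Of the 9 tested autophagy genes found by name, 1 rose and 3 fell in both leaves, and none was a member.

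Transporters and enzymes of nitrogen recovery included OS01G0142800, annotated as a peptide transporter. Its replicates lay close together, with 64.4, 61.1, and 64.6 CPM at 12 DAH against 44.2, 43.4, and 41.2 CPM at 4 DAH in FL (log2 change 0.58 ± 0.09, limma adjusted p = 1.47e-05). In SL, the change was 0.59 ± 0.09 (limma adjusted p = 8.08e-06). By 20 DAH, it had 108 to 118 CPM in FL and 122 to 151 CPM in SL. The late libraries had 109 to 148 CPM in FL and 127 to 173 CPM in SL. OS04G0460300, annotated as an amino acid transporter, peaked at 28 DAH, at 17.9, 17.3, and 17.3 CPM in FL and 45.2, 10.9, and 12.4 CPM in SL. SL replicate 1 thus stood far above the others. At 36 DAH, it was below the mean of 28 and 44 DAH in both leaves (log2 -0.97 ± 0.30 in FL and -1.07 ± 0.30 in SL, limma adjusted p = 0.00697 and 0.00343). OAT (OS03G0643300), ornithine aminotransferase of arginine breakdown, also had its highest mean at 28 DAH, with 84.8, 82.1, and 90.1 CPM in FL and 124, 83.7, and 94.1 CPM in SL. OS10G0550900, which has a proline oxidase domain, had instead its highest values at 44 DAH, with 144, 177, and 132 CPM in FL and 185, 311, and 140 CPM in SL.

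Annotated phosphate genes among the members had their highest values at 44 DAH. OsSPX1 (OS06G0603600) encodes an SPX-domain protein that senses phosphate status through inositol polyphosphates and restrains the PHR transcription factors. It had 245, 192, and 255 CPM in FL at 44 DAH, against 74.9, 84.1, and 90.5 CPM at 28 DAH. In SL, it had 219, 270, and 212 CPM at 44 DAH, against 65.4, 68.4, and 64.4 CPM at 28 DAH. No library of 44 DAH overlapped with an earlier day in either leaf, and the log2 change was 1.48 ± 0.21 in FL and 1.96 ± 0.21 in SL (limma adjusted p = 9.49e-06 and 1.72e-07). NIGT1 (OS02G0325600), a GARP-type repressor linked to nitrate and phosphate signaling, had 52.7, 37.5, and 53.1 CPM in FL at 44 DAH, against 8.78, 9.43, and 4.37 CPM at 28 DAH. In SL, it had 52.1, 53.2, and 43.9 CPM at 44 DAH, against 4.28, 3.37, and 3.27 CPM at 28 DAH, with log2 changes of 2.503 ± 0.29 in FL and 3.44 ± 0.29 in SL (limma adjusted p = 4.61e-07 and 1.58e-09). At 28 and 36 DAH it had 2.46 to 9.43 CPM over both leaves, against 1.30 to 3.26 CPM at the early days, and all 3 FL libraries of 28 DAH were above the early ones. Of the 20 tested genes named for phosphate signaling and transport, 9 rose and 3 fell from the early to the late days in both leaves, against 21.2% and 20.8% of all tested genes.

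Metal-binding members included the metallothionein MT1B (OS03G0288000), a small cysteine-rich protein. At 20 DAH, whose libraries the rule did not use, MT1B had 1.17, 1.23, and 1.90 CPM in FL, against 18.6, 3.57, and 14.1 CPM in SL. The leaves did not overlap although SL replicate 2 was low, and the log2 difference was -2.28 ± 0.42 (limma adjusted p = 0.000181), the largest in size among the members lower in FL at this day. OS01G0826000, with a heavy metal domain, had 131, 165, and 155 CPM in FL at 44 DAH, against 49.0, 52.8, and 83.7 CPM at 28 DAH (log2 change 1.29 ± 0.24, limma adjusted p = 0.000181). In SL, its change of 1.07 ± 0.24 was lost without replicate 2 (limma adjusted p = 0.00209 with and 0.174 without it). The ferroportin-domain gene OS05G0131500 dipped at 36 DAH by -0.81 ± 0.14 in FL and by -0.84 ± 0.14 in SL on the log2 scale (limma adjusted p = 1.79e-05 and 1.13e-05). Metallothioneins are short and similar genes, so reads may be shared among copies, and of the 6 tested, 3 rose and 1 fell in both leaves.

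GH3-8 (OS07G0592600), an acyl acid amido synthetase that conjugates auxin with amino acids, was higher in FL than in SL at 28 DAH, with 36.1, 37.99, and 17.8 CPM against 13.3, 9.59, and 5.78 CPM (log2 difference 1.58 ± 0.28, limma adjusted p = 0.000142). OPR1 (OS06G0216300), an oxophytodienoate reductase of the jasmonate family, had 32.8, 44.8, and 35.5 CPM in FL at 28 DAH, against 16.7, 15.5, and 12.1 CPM in SL. This difference of 1.30 ± 0.30 was lost without replicate 2 (limma adjusted p = 0.00186 with and 0.052 without it). Among 13 tested genes named for jasmonate synthesis, 1 rose and 5 fell from the early to the late days in both leaves, and of the 6 tested GH3 genes 2 rose and 1 fell.

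GH2 (OS02G0187800), a cinnamyl alcohol dehydrogenase of lignin synthesis, was higher in FL than in SL at 28 DAH. It had 33.7, 44.8, and 35.4 CPM in FL at 28 DAH, against 7.87, 9.81, and 13.03 CPM in SL (log2 difference 1.81 ± 0.24, limma adjusted p = 5.05e-06). At 36 DAH, it had 24.3, 36.3, and 34.2 CPM in FL, against 26.4, 24.3, and 42.4 CPM in SL. The FL libraries were thus all above the SL libraries at 28 DAH and overlapped with them at 36 DAH. The laccase gene LAC19 (OS11G0641500), of a family of oxidases linked to lignin, was a member at low levels, 0.0589 to 4.24 CPM in the late FL libraries and 0.569 to 5.55 CPM in the late SL libraries. Its early libraries had 0 to 0.384 CPM in FL, which overlapped with the late ones, and 0.0534 to 0.464 CPM in SL, which did not. Of the 4 tested laccases, 3 rose in both leaves, where 21.2% of all tested genes did. The rule had fixed this for 2 of them, which are members, and of the other two, 1 rose.

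Among genes of energy metabolism, Adh2 (OS11G0210500), an alcohol dehydrogenase of fermentation, had 27.1, 25.96, and 22.9 CPM in FL at 44 DAH, against 3.33, 6.25, and 5.004 CPM at 28 DAH. In SL, it had 21.6, 19.9, and 12.9 CPM at 44 DAH, against 3.25, 3.00, and 2.94 CPM at 28 DAH, and the log2 change was 2.22 ± 0.35 in FL and 2.18 ± 0.35 in SL (limma adjusted p = 2.66e-05 and 5.42e-05). Its early FL libraries were at 0 to 0.540 CPM, near the floor. OS03G0248600, annotated as the glycolytic enzyme enolase, also rose late in both leaves, by 0.88 ± 0.17 in FL and 0.92 ± 0.17 in SL on the log2 scale (limma adjusted p = 0.000287 and 0.000307). The enolase had 252, 226, and 251 CPM in FL at 44 DAH, against 110, 119, and 180 CPM at 28 DAH.

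Several members with the largest differences have no annotation in the sources used here. OS03G0376600 had the deepest dip, with 15.7, 19.3, and 18.9 CPM in FL at 36 DAH, against 133 to 152 CPM at 28 DAH and 154 to 194 CPM at 44 DAH. In SL, it had 14, 18.3, and 17.7 CPM at 36 DAH, against 82.8 to 91.0 CPM at 28 DAH and 108 to 156 CPM at 44 DAH. Its level at 36 DAH was thus near that of the early days, which reached 13.4 CPM in FL, and the deviation was -3.01 ± 0.14 in FL and -2.60 ± 0.14 in SL (limma adjusted p = 3.09e-16 and 1.05e-14). OS02G0770800 was the member furthest above SL in FL at 20 DAH, with 10.2, 11.6, and 11 CPM in FL against 2.39, 1.503, and 1.38 CPM in SL (log2 difference 2.10 ± 0.28, limma adjusted p = 4.44e-06). OS12G0610600 was lower in FL than in SL at 5 of the 6 days, and at 28 DAH it had 46.2, 40.5, and 40.3 CPM in FL against 254, 127, and 172 CPM in SL (log2 difference -2.02 ± 0.25, limma adjusted p = 2.48e-06). The 20 DAH difference of OS02G0770800 and the 28 DAH difference of OS12G0610600 held without each replicate number, while the 36 DAH call of OS12G0610600 was lost without replicate 1 or 2 (limma adjusted p = 0.0224, highest 0.312).

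The leaves were compared at each day with limma on quantile-normalized log2(CPM + 1), with an adjusted p of 0.05 over the 22057 tested genes as the threshold. All 150 members passed the filter on low values. The score took the smaller of the values of both leaves, and the 20 DAH libraries did not enter it. At 20 DAH, 25 members were higher and 45 lower in FL than in SL, 46.7% in all. Of the tested genes, 30.4% were past the threshold, 15.2% higher and 15.2% lower. Every FL library exceeded every SL library in 31 of the 150 members, a smaller share than the 28.2% of the tested genes. Every SL library exceeded every FL library in 49 of the 150 members, a larger share than the 26% of the tested genes. The tested genes were not matched to the members for change over the days, which the rule chose on. The part of this in the shares was not tested. Without a replicate number, 52 to 60 members were called at this day, 70 with all.

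The libraries of the other days entered the rule, so the counts at those days are a description. At 4 DAH, 3 were higher and 32 lower in FL than in SL (14.1% of tested genes past the threshold, 7.56% higher and 6.53% lower). At 12 DAH, 3 were higher and 44 lower (13.5% of tested genes, 6.51% higher and 7.01% lower). Over the members, the median FL minus SL difference was -0.16 at 4 DAH and -0.30 at 12 DAH on the log2 scale, against 0.01 and -0.03 over all tested genes. Without a replicate number, 18 to 21 members were called at 4 DAH, the lowest count without replicate 1, and 18 to 42 at 12 DAH, the lowest without replicate 2. At both days, 23 members were lower in FL, where 2.33% of the tested genes were. OS05G0424000 is among them, with 3.78, 3.53, and 3.29 CPM in FL at 4 DAH against 13.6, 15.9, and 16.7 CPM in SL (log2 difference -1.80 ± 0.12, limma adjusted p = 7.17e-11).

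At the late days, 28 members were higher and 39 lower in FL than in SL at 28 DAH (23.7% of tested genes past the threshold, 10.3% higher and 13.4% lower). At 36 DAH, 6 were higher and 37 lower (10.9% of tested genes, 4.68% higher and 6.24% lower). At 44 DAH, 4 were higher and 9 lower (3.8% of tested genes, 1.97% higher and 1.83% lower). The calls of 36 and 44 DAH rest on few libraries. At 36 DAH, 25 members or fewer were called without a replicate number, and none without replicate 1, and at 44 DAH 7 or fewer, and none without replicate 2. With the 6 libraries of the day alone, limma called 0 members at 36 and 44 DAH, where edgeR on recovered reads from all libraries still called 35 and 11 of the main calls and 73 and 39 members had an unadjusted p under 0.05 in the fit of all libraries. At 28 DAH, 40 to 64 members were called without a replicate number, the lowest count without replicate 1.

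Over all days, 67 members were lower in FL than in SL at 1 or more days, 35 were higher at 1 or more days, 4 of these in both directions at different days, and 52 at none. Of all tested genes, 27.2% were lower in FL at 1 or more days, 24.9% higher, 1.99% in both directions, and 50% at none. At both 20 and 28 DAH, 20 members were higher in FL (7.73% of tested genes) and 34 were lower in FL (9% of tested genes). Lower in FL at 5 or 6 days were 21 members (0.843% of tested genes), and higher in FL at 5 or 6 days were 2 (0.975%). Libraries of 5 of these 6 days entered the rule. The tonoplast aquaporin gene TIP4-2 (OS01G0232100), a channel of the vacuolar membrane, was lower in FL at all 6 days, although it was sparse in FL, at 0.0397 to 1.81 CPM over all days. At 20 DAH, it had 0.213, 0.363, and 0.664 CPM in FL, against 2.47, 2.25, and 2.76 CPM in SL (log2 difference -1.40 ± 0.19, limma adjusted p = 5.95e-06). Its calls at 4, 36, and 44 DAH were lost without some replicate number (highest adjusted p = 0.0667 to 0.19, limma). Of the 6 tested tonoplast aquaporins, 3 rose and 2 fell from the early to the late days in both leaves.

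**Figure D3:**
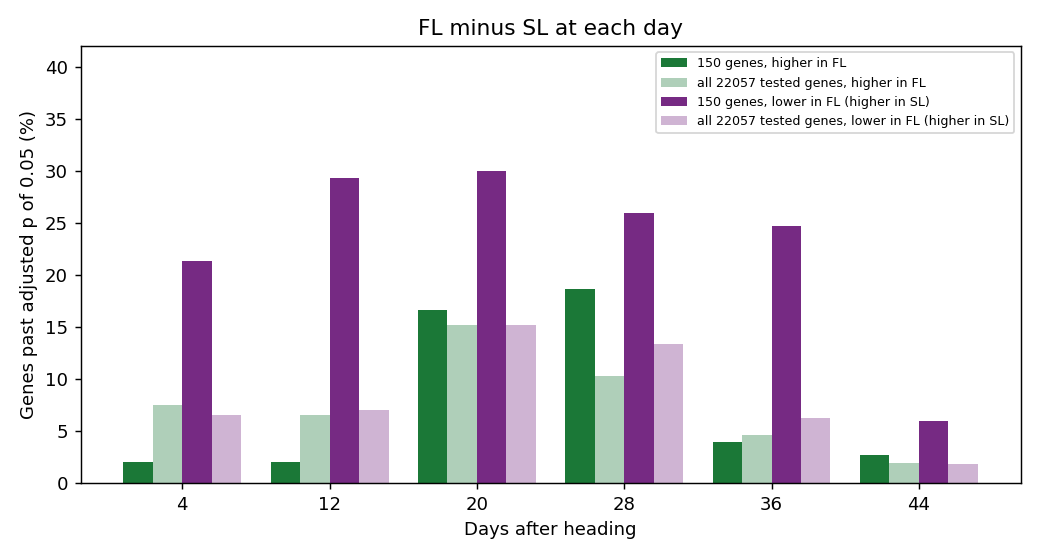
Share of genes past an adjusted p of 0.05 (limma) in the FL minus SL comparison at each day after heading, for the 150 genes (dark bars) and all 22057 tested genes (light bars), with genes higher in FL in green and lower in FL in purple. At 12 DAH, 3 of the 150 genes were higher and 44 lower in FL, and at 28 DAH 28 were higher and 39 lower.

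The rule used both 4 and 12 DAH, through the higher of their means, so their difference is given as a description. In FL, 48 members were higher and 3 lower at 12 than at 4 DAH (28.6% of tested genes past the threshold, 13.4% higher and 15.2% lower). In SL, 65 were higher and 2 lower (32.7% of tested genes, 17.4% higher and 15.4% lower). The level at 12 DAH was higher in both leaves in 38 members, where 8.72% of the tested genes had this. The largest change in FL was that of OS05G0424000, at 32.5, 24.8, and 28.1 CPM at 12 DAH (log2 change 2.71 ± 0.12, limma adjusted p = 2.6e-15). Without a replicate number, 32 to 39 members were called in FL, the lowest count without replicate 2, and 40 to 57 in SL, the lowest without replicate 1. The change differed between the leaves in 2 members, 1 in each direction (0.834% of tested genes, 0.322% with a larger and 0.512% with a smaller change in FL), and 0 to 1 members were called without a replicate number.

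Both 28 and 44 DAH could set the lowest late mean of the rule, and their difference is likewise a description. Within the late days, 55 members were higher and 5 lower at 44 than at 28 DAH in FL (24.5% of tested genes past the threshold, 12.4% higher and 12.1% lower). In SL, 51 were higher and 5 lower (17.4% of tested genes, 8.02% higher and 9.4% lower). A higher level at 44 DAH in both leaves was called in 34 members, where 3.7% of the tested genes had this, and a lower level in both leaves in none. Without a replicate number, 39 to 55 members were called in FL and 28 to 63 in SL, the lowest count without replicate 2 in both leaves. This is the SL replicate that was most often lowest at 28 DAH and highest at 44 DAH among the members. NIGT1, Adh2, OsSPX1, and the enolase are among the 34. The change differed between the leaves in 7 members, 2 with a larger and 5 with a smaller change in FL (2.85% of tested genes, 1.01% with a larger and 1.84% with a smaller change in FL), and 1, 0, and 20 members were called without replicates 1, 2, and 3.

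The lowest late mean that the rule used was that of 36 DAH in most members, so the level at this day is a description too. At 36 DAH, 11 members were higher and 69 lower than the mean of 28 and 44 DAH in FL (53.2% of tested genes past the threshold, 27.2% higher and 26% lower). In SL, 9 were higher and 55 lower (51.2% of tested genes, 26.4% higher and 24.8% lower). In both leaves, 48 members were lower, where 19.9% of the tested genes were, and 5 were higher, where 20.4% were. Neither leaf passed the threshold in 59 members, or in 36% of the tested genes. OsNAC6, OsPRR1, and OS03G0376600 are among the 48. NIGT1 is as well, although its SL libraries had 4.89, 4.16, and 4.59 CPM at 36 DAH and 4.28, 3.37, and 3.27 CPM at 28 DAH, and its high 44 DAH level sets the mean. By contrast, the peptide transporter OS01G0142800 is among the 5 with a higher level at 36 DAH (log2 0.29 ± 0.08 in FL and 0.37 ± 0.08 in SL, limma adjusted p = 0.00245 and 0.000237). Its FL call was lost without replicate 3 (limma adjusted p = 0.09). Each leaf and day is a group of its own. At 36 DAH, as at the other days, the day and anything that happened at its sampling cannot be told apart.

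**Figure D4:**
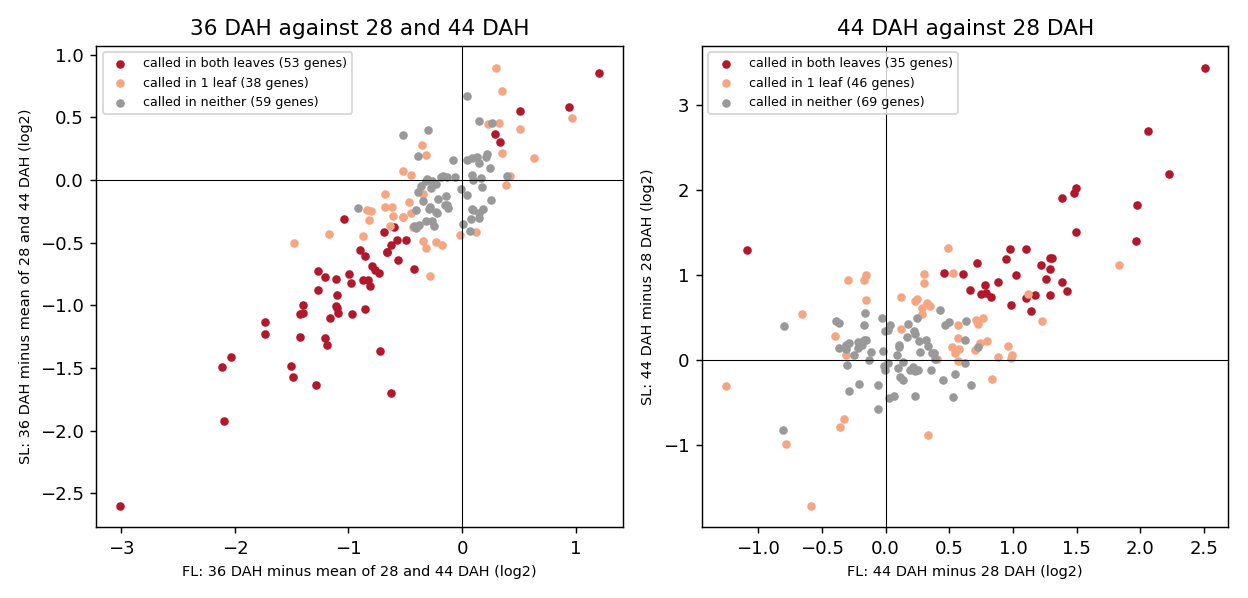
Log2 differences within the late days for the 150 genes, with FL on the horizontal and SL on the vertical axis: 36 DAH minus the mean of 28 and 44 DAH (left) and 44 DAH minus 28 DAH (right). Each point is a gene, colored by whether it passed the limma threshold in both leaves, 1 leaf, or neither, and 48 genes lie below 0 in both leaves on the left and 34 above 0 in both leaves on the right among those called in both.

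At 20 DAH, the mean level of most members lay between the early and the late days. It was between the highest early and the lowest late mean in 89 members in FL and 101 in SL, below the highest early mean in 9 and 10, and above the lowest late mean in 52 and 39. The median place of 20 DAH in this interval was 77.0% in FL and 61.1% in SL, given as a description, since the interval comes from the libraries of the rule.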

How the data were processed

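The authors aligned trimmed reads to the IRGSP 1.0 rice genome with TopHat2 2.0.10 and counted reads per gene with HTSeq 0.6.1. They scaled the counts to CPM by the TMM method in edgeR, which adjusts for library size and RNA composition. The deposited signal is this CPM on a linear scale, one table for all 36 libraries, and 0 columns of values were left unused. Whole reads were recovered from the steps of the deposited values, with 100% of the values within 0.01 reads of a whole number. Depth is given in those reads. Floors cover counting error only, and the ± values are standard errors of the limma fit, from the spread among replicate libraries.

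Here log2(CPM + 1) was quantile normalized, and genes were kept where 3 libraries or more reached 1 on that scale. Contrasts were fitted over all 12 groups with limma 3.58.1 (trend, empirical Bayes) in R 4.3.3, with Benjamini-Hochberg adjustment within each contrast and a threshold of 0.05. The fit was tested on simulated data. Tables and plots were made with Python 3.11.15, numpy 2.4.6, pandas 2.3.3, and matplotlib 3.10.9. The membership rule used log2(CPM + 1) without quantile normalization.

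Members were picked for naming as the 15 with the highest score and the 10 with the highest late level. Also picked were the 5 largest and 5 smallest FL minus SL differences at 20 DAH and changes from 28 to 44 DAH past the threshold. Up to 4 of each gene list and those beside the score limit completed this rule. The text describes only part of the members so picked, and which of them to describe was settled with their values known. OS02G0579000, OsPRR1, Hd1, OsRCCR1, OS10G0550900, GH3-8, OPR1, GH2, LAC19, OS03G0376600, OS05G0424000, OS05G0565400, TIP4-2, OS05G0131500, and any other gene named outside this rule were chosen after their values were seen. The members and the lists were chosen with earlier results of these data known. Alternatives were no quantile normalization, a pseudocount of 0.1, no filter, edgeR 4.0.16 on recovered reads, leaving out each replicate number, a replicate block, the 6 libraries of a day alone, and a fit without 36 DAH. Sequence features were not analysed here.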

Additional observations from a re-analysis of the deposited data

Results flagged for a closer look

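The change between days differed between the leaves in a few members, by the interaction term of the limma fit. Between 4 and 12 DAH, 2 members passed the threshold. OS05G0424000 changed more in FL than in SL, by 0.98 on the log2 scale (limma adjusted p = 0.00643), and the call was lost without each of the replicate numbers (highest adjusted p = 0.261). OS05G0565400 had a difference of -1.39 (limma adjusted p = 0.012), lost without replicate 1 or 2 (highest adjusted p = 0.495).

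Between 28 and 44 DAH, 7 members passed. GH2 (OS02G0187800) had the difference of largest size, -2.37 (limma adjusted p = 0.000229), with a change of -1.08 ± 0.24 in FL and 1.28 ± 0.24 in SL, and the difference was lost without replicate 1 or 2 (highest adjusted p = 0.0618). OS02G0626400 had a difference of -1.24 (limma adjusted p = 0.00204), lost without replicate 2 (adjusted p = 0.127). OS04G0447700 had a difference of -0.95 (limma adjusted p = 0.0364), lost without replicate 1 or 2 (highest adjusted p = 0.422).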

How the results depend on the processing

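Only values of members picked for naming that were past the main fit's threshold were followed under the alternatives, so calls gained were not counted. Of these 2962 values, 2541 kept direction and side of the threshold, 421 kept direction but lost the call, and 0 reversed. With a pseudocount of 0.1, 96 of the 150 genes were chosen again, and 18 when 36 DAH was left out of the rule. Leaving out a replicate number, 108 to 123 were chosen again. Members called in FL minus SL without a replicate number were 18 to 21 at 4 DAH, 18 to 42 at 12 DAH, 52 to 60 at 20 DAH, 40 to 64 at 28 DAH, 0 to 25 at 36 DAH, and 0 to 7 at 44 DAH. For 12 against 4 DAH they were 32 to 39 in FL and 40 to 57 in SL, for 44 against 28 DAH 39 to 55 in FL and 28 to 63 in SL, and for 36 DAH 59 to 76 in FL and 53 to 62 in SL. The leaf difference in the change was called in 0 to 1 members between 4 and 12 DAH and in 0 to 20 between 28 and 44 DAH. With the 6 libraries of the day alone, limma called 0 members at 36 DAH and 0 at 44 DAH. With a pseudocount of 0.1, 4 members differed between the leaves in the change from 4 to 12 DAH. The cause of these shifts was not tested. Leaving the 36 DAH libraries out of the fit, an alternative chosen after seeing the data, moved no count of members by over 1.5 times.

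The replicate block called 20 members in FL minus SL at 44 DAH, against 13 without it, and moved no other count of members by over 1.5 times. The deviations of FL and SL libraries with the same number correlated by 0.17 on average (range -0.12 to 0.60), against -0.09 for different numbers, and 11 of 18 pairs were above 0.1. Since not every pair was, and no label ties a number to a shared source, the numbers were not taken as pairing. At 4 DAH all 3 pairs were above 0.1, and there the block called 38 members, against 35 without it. Low members limit what depth can show, since 3 reads were worth up to 0.511 CPM.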
